A study of Mus musculus with 73 samples.

Results

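Gata3 was described here across 73 single cells of the mouse cochlea at postnatal day 14, all labelled Casz1 -/- IHC. It is 1 of the 55291 gene rows of the deposited count table, chosen by name, and it was compared with the 8618 other genes whose mean level reached 10 CPM. CPM are a gene's counts scaled to the same total for every cell. Inner hair cells (IHCs) report sound to the brain through ribbon synapses, while outer hair cells amplify it by changing length. Casz1 encodes a DNA-binding zinc-finger protein, and the study looks at inner hair cells that lack it.

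All cells came from mice carrying Atoh1Cre/+ and Casz1flox/flox, together with Fgf8-Flpo/+ and a pair of reporter alleles, Rosa26-CAG-Loxp-stop-Loxp-3xGFP(Ai47) and Rosa26-CAG-Frt-stop-Frt-tdTomato. The Atoh1 Cre acts in hair cells as they form, where it deletes floxed Casz1 and turns on the GFP reporter. The Flpo driven by Fgf8, which marks inner hair cells, turns on tdTomato. Only doubly fluorescent cells were collected, manually, so every cell had Fgf8-Flpo activity at some time. No animal is named in the labels, and the 73 cells count as 1 sample without replicates. Wild-type cells were not analysed here, so the values describe Gata3 in Casz1-null cells without a comparison to intact ones.

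GATA3 is a transcription factor that binds GATA sequences in DNA through a pair of zinc fingers. In the mouse it is needed for the inner ear to form, and in the mature cochlea it is known from inner hair cells and supporting cells more than from outer hair cells. In humans, loss of 1 GATA3 copy causes a syndrome of hypoparathyroidism, deafness and renal disease. The protein works with partners such as FOG1 (gene Zfpm1), which binds its zinc fingers, and in blood cells with the LDB1 and LMO adaptors.

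GENCODE vM21 (mm10) annotates Gata3 on the minus strand of chromosome 2, between 9857078 and 9890034, with 3978 bases of exon in 10 blocks. RefSeq places its start in a GC-rich stretch, and the 250 bases before that start (GRCm38.p6, chr2:9878601-9878850, minus strand) are shown because they were searched for the GATA motif, the sequence that GATA factors themselves bind. The window holds 0 exon bases of Gata3 and lies 11184 bases inside the annotated end of the gene, and all 250 bases fall in an exon of the antisense gene Gm13256.

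Gata3, 250 bases before the start: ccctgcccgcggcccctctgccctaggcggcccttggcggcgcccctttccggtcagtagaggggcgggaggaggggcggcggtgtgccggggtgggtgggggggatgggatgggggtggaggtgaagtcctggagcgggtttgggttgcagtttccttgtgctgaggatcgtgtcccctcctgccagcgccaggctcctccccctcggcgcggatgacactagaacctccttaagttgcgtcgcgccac

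No base is in capitals, because capitals would have marked the GATA motif and none was found. The letters searched on both strands were AGATAA, its variant with a last G (written AGATAG), and the forms of either that begin with T in place of A (namely TGATAA, and with the last G also TGATAG). Of the 32851 promoters of the same length in the RefSeq table, 26.5% held at least 1 of them. The window is 70% G and C, against a median of 52.4% over all promoters, and 9.24% of promoters reached that value.

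Reads of the genes that overlap Gata3 were few beside its own. Gata3 held 363924 counts over the 73 cells, while Gm13256, antisense and sharing 155 exon bases with it, held 60 and reached at most 2.93 CPM. The transcript 9230102O04Rik, on the same strand and sharing 77 exon bases, held 5240 counts, with a maximum of 37.8 CPM and 44 cells at 0. The third, 4930412O13Rik, shares no exon base and held 964 counts. Whether reads were counted by strand is not given, so reads from the 155 shared bases cannot be assigned to a strand. The nearest gene with an official name, Taf3, a subunit of the general transcription factor TFIID, lies 24518 bases away, was detected at 10 CPM in 43 cells and had a rank correlation of -0.01 with Gata3. Of the 3 nearest annotated genes on the other side, none had a read in any cell.

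Gata3 was present in every cell, at levels that differed 39.9-fold between the lowest and the highest. The lowest cell, number 46, had 28.7 CPM, the median was 252 CPM with quartiles of 162 and 410, and the highest, cell 28, had 1146 CPM. All 73 cells passed 10 CPM, 62 passed 100 CPM and 10 passed 500 CPM. Of the 73 cells, 1 lay under 50 CPM, 10 lay at 50 to 100 CPM, 17 at 100 to 200, 20 at 200 to 300, 6 at 300 to 400, 15 at 400 to 600 and 4 above, with none between the second highest cell, at 725.5 CPM, and the highest. Since the libraries held 11027945 to 37183702 counts, these levels rest on 474 to 19491 Gata3 counts. The Poisson interval of the lowest cell is 26.2 to 31.4 CPM and that of the highest 1130 to 1163 CPM, so counting error is small beside the spread. Such intervals cover counting error only, because the kit carries no molecular identifiers and PCR copies are counted.

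**Figure D1:**
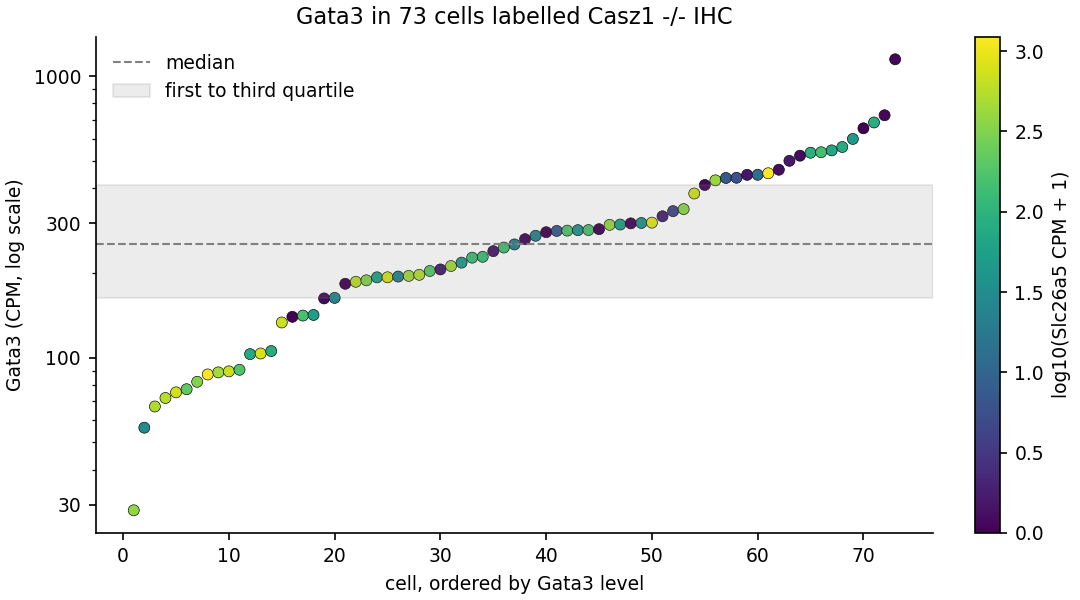
Gata3 in CPM (log scale) in each of the 73 cells, ordered by that level and coloured by the Slc26a5 level. The dashed line is the median, 252 CPM, and the band runs between the quartiles, 162 and 410 CPM. Every cell lies above 28 CPM, and the 6 lowest have 28.4 to 741 CPM of Slc26a5.

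Gata3 had a larger coefficient of variation than most genes of like level, in part through its highest cells. Its SD over the cells was 194 CPM around a mean of 290.1 CPM, a coefficient of variation of 0.670. The 337 genes with a mean within 1.25 times that of Gata3 had a median coefficient of variation of 0.553 (quartiles 0.480 and 0.632), and 81.0% of them varied less. By mean level Gata3 ranked 546th of 8619 genes. The highest cell, number 28, held 27% of the squared deviations from the mean. Without it, an alternative chosen after seeing the data, the coefficient of variation was 0.599 and 67.7% of the same 337 genes varied less. Without the 3 highest cells it was 0.572, and 57.9% of them varied less.

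Among the hair cell transcription factors examined, Gata3 was one of the most abundant per length of transcript. In CPM per kb of exon, Gata3 had a median of 63.4 (quartiles 40.8 and 103) and came after Pou4f3, the factor needed for hair cell survival, at 188. It stood next to Rorb, a retinoid-related orphan receptor, at 58.6, and the quartiles of these last 2 overlap, with Gata3 the higher in 39 of 73 cells. Gfi1, a zinc-finger factor of hair cell survival, had a median of 42.6 and lay below Gata3 in 49 cells. Tbx2, a factor of inner hair cell fate, had a median of 28.5 and lay below Gata3 in 55 cells. Casz1 itself had a median of 3.45 and lay below Gata3 in 72 cells. Deleted and kept exons cannot be told apart in counts per gene, so Casz1 does not check the deletion here. Ikzf2 and Esrrb had medians of 0.

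**Figure D2:**
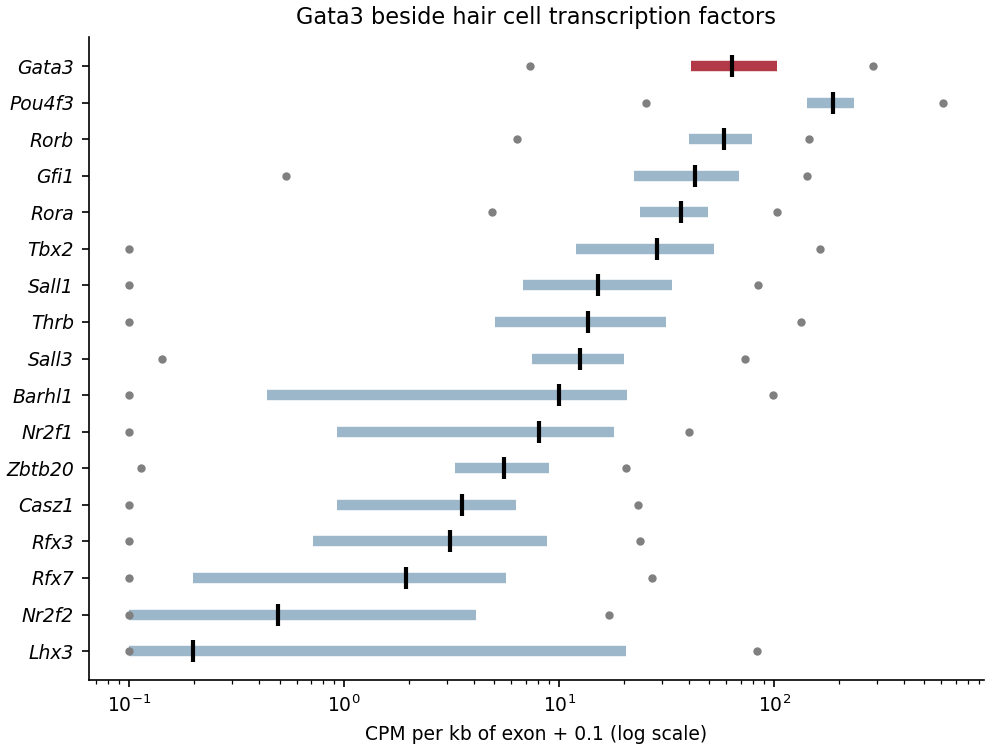
Level per length of exon (CPM per kb plus 0.1, log scale) of Gata3, in red on top, and of 16 of the hair cell transcription factors detected in at least 31 cells. Ticks are medians over 73 cells, bars run between the quartiles and grey points are the lowest and highest cell. Gata3, with a median of 63.4, lies between Pou4f3 (188) and Rorb (58.6).

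No other GATA factor shared these cells at a comparable level. Gata1, Gata4, Gata5 and Gata6 had no read in any of the 73 cells. Gata2, a relative with roles in blood and in the inner ear, had reads in 5 cells, reached 10 CPM in 2 and had a maximum of 80.9 CPM. Trps1, a repressor with a GATA-type finger, reached 10 CPM in 6 cells. Gata3 exceeded each of these in all 73 cells per length of exon.

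Several partners of GATA3 were present. Of 16 partners listed, 10 had a mean of 10 CPM and could be compared, and 0 of 10 had a rank (Spearman) correlation of 0.3 or more in size with Gata3, a size that 2.56% of all genes compared reached upward and 3.04% downward, so a count of 0 in 10 is near the share of all genes. Zfpm1 was detected in 31 cells (median 5.12 CPM, maximum 115) and stood at 0.19, while Zfpm2 had no read. Ldb1, the adaptor that bridges LMO proteins, was detected in 62 cells and stood at 0.25. Lmo4 was in all 73 cells (median 176 CPM) at 0.00, and Lmo1 in 72 cells (median 296 CPM) at -0.15. Chd4, the remodelling ATPase of the NuRD complex, was in 72 cells and stood at 0.19. The adaptors Ldb2 and Lmo2 had no read.

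Genes that GATA3 is known to act on or with in other tissues had few or no reads in most cells. Of 14 listed, 7 had no read in any cell, among them the T helper cytokines Il5 and Il13, the parathyroid genes Gcm2 and Pth and the catecholamine enzymes Th and Dbh. Il4, a cytokine of the same locus, reached 10 CPM in 16 cells but at most 38.3 CPM. Ret, a receptor of kidney and neurons, reached at most 0.793 CPM. The other listed genes were detected in at most 6 cells each, with maxima up to 356 CPM (Cd69, in 1 cell), and none of the 14 had a mean of 10 CPM. Of all 55291 gene rows, 27502 had a count and 8619 had a mean of 10 CPM or more. These counts therefore do not set the list apart from other genes.

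Over the cells, Gata3 moved against Slc26a5, the prestin gene, whose product drives the length changes of outer hair cells. The rank correlation was -0.41 over 73 cells, each a library of its own depth, and this value is a description without a p-value. Slc26a5 ran from 0 CPM through a median of 73.1 to 1229 CPM. The relation left much of the spread untouched: the 4 cells without a Slc26a5 read had 652, 183, 279 and 286 CPM of Gata3, and the 4 cells with the most Slc26a5 had 452, 87.2, 302 and 103 CPM. Those ranges overlap, and the cell highest in Slc26a5, number 64, ranked 13th in Gata3. The cell highest in Gata3, number 28, had 0.118 CPM of Slc26a5, and the next, number 37, had 0.122 CPM. At the low end, the cell lowest in Gata3 had 381 CPM of Slc26a5. Of the 22 cells with Slc26a5 under 10 CPM, the lowest in Gata3 had 140 CPM, and 15 cells had less Gata3 than that.

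Library properties moved with Gata3 too. Its rank correlation was 0.33 with the share of counts from mitochondrially encoded (mt-) genes, which ranged from 1.81 to 13.0% (median 6.06). It was -0.30 with total counts, -0.33 with the share of ribosomal protein genes, 0.11 with the number of genes that had a count and 0.17 with the mean level of immediate early and stress genes. Slc26a5 went the other way with the mt- share, at -0.49. Against Slc26a5, Gata3 stood at -0.30 with ranks corrected for the mt- share and at -0.27 corrected for the ribosomal protein share. Ranks of Slc26a5 and of the mt- share together accounted for 19% of the rank variance of Gata3, and Slc26a5 alone for 16.7%. The part of these properties in the results was not tested beyond such corrections.

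Markers of other cell types were sparse, and supporting cells and some neurons also express Gata3. Of 10 supporting cell genes, 9 reached 10 CPM in fewer than 10 cells, and their summed level ran from 0 through a median of 0.684 to 1204 CPM, at a rank correlation of -0.07 with Gata3. Of the neuronal markers, Prph, Prox1, Scn9a, Th and Ntng1 reached 10 CPM in no cell, and Snap91, in all 73 cells, made up nearly all of their sum (median 707 CPM, range 150 to 2187). The summed neuronal level stood at 0.25, or 0.07 corrected for Slc26a5 and the mt- share. The summed glial, mesenchymal, blood and immune, and endothelial and strial markers stood between -0.16 and -0.03. Among single markers, the glial factor Sox10, detected in 27 cells, stood at -0.32, or -0.02 corrected. At least 1 of the 48 rarer markers reached 50 CPM in 24 cells, and without these cells the median of Gata3 was again 252 CPM and its correlation with Slc26a5 -0.47. Of the general hair cell genes, Myo7a stood at 117 CPM or more and Pou4f3 at 60.9 CPM or more in every cell. Myo6, Tmc1, Cib2, Espn, Pvalb, Ush1c and Lhfpl5 were also detected in all 73 cells, Cdh23 in 71 and Gfi1 in 69. The rest were patchier: Pcdh15 was detected in 58 cells, Chrna9 in 51, Tmie in 50, Barhl1 in 48 and Lhx3 in 31.

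Few genes followed Gata3 closely. Of 8618 genes compared, 1 had a rank correlation of 0.5 or more (0.0116%) and 2 had one of -0.5 or less (0.0232%), 3 in all (0.0348%). Slc26a5, in the same cells, reached that size with 191 of 8617 genes (2.22%). Most genes had fewer such partners: 6599 of the 8618 genes had no partner at that size, and 91.5% had fewer than the 3 of Gata3. Just inside the limit was Prpsap1 (0.50), and just outside were Limd2 (0.496), Nfkbia (-0.489) and Ripor3 (0.488). At a size of 0.3, 221 genes rose with Gata3 (2.56%) and 262 fell with it (3.04%). Corrected for Slc26a5 and the mt- share, 57 of 8603 genes stood at 0.3 or more (0.663%), 87 at -0.3 or less (1.01%), 0 at 0.5 or more (0%) and 1 at -0.5 or less (0.0116%).

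Nmd3, the adaptor that exports large ribosomal subunits from the nucleus, had the value farthest from 0, at -0.55. It ran from 0 CPM in 13 cells through a median of 53.9 to 296 CPM. In the 5 cells lowest in Gata3 it had 88.6, 94.2, 103, 72.4 and 27.1 CPM, and in the 5 highest 0, 0.282, 0, 79.6 and 0 CPM, with Gata3 rising in each group of 5. The 21 cells with Nmd3 under 10 CPM all had 183 CPM or more of Gata3, and the 20 cells with less Gata3 all had Nmd3. The correlation was -0.52 corrected for Slc26a5 and the mt- share, and Nmd3 itself stood at 0.17 with Slc26a5. Among all genes compared, Gata3 was also the one with the largest uncorrected correlation in size for Nmd3. Nmd3 was singled out from 8618 genes by this value, so its size is that of the most extreme of many.

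Mdh1, the cytosolic malate dehydrogenase, also stood at -0.55, but it followed Slc26a5 more closely. It was present in every cell, from 180 through a median of 877 to 6824 CPM. Its correlation with Slc26a5 was 0.67, and with Gata3 it was -0.37 after the correction. Among the genes ranked by the size of their uncorrected correlation with Mdh1, Gata3 came 137th. Prpsap1, a regulator of phosphoribosyl pyrophosphate synthesis for nucleotides, ran from 0 through a median of 221 to 1048 CPM and stood at 0.50, or 0.40 corrected. It stayed at 0.5 or more in 47 of the 73 omissions of a single cell. Leaving out any 1 cell kept Nmd3 and Mdh1 beyond -0.5.

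**Figure D3:**
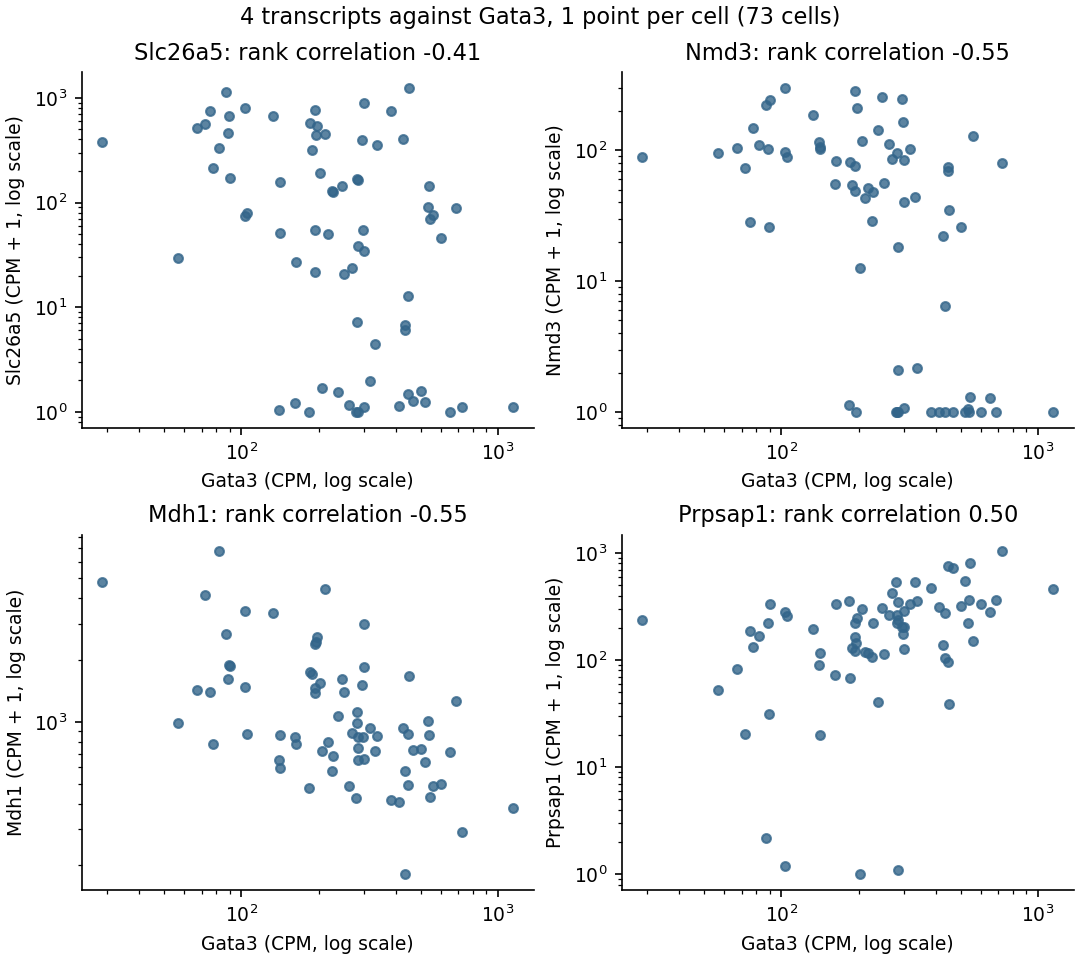
Slc26a5, Nmd3, Mdh1 and Prpsap1 (CPM plus 1, log scale) against Gata3 (CPM, log scale), with 1 point per cell for 73 cells. Nmd3 splits into cells near 0, all with at least 183 CPM of Gata3, and cells with more, up to 296 CPM.

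Several of the 15 genes ranked highest stood far below 0 with Slc26a5. Dnajc5b, a chaperone of synaptic vesicles listed among inner hair cell genes, stood at 0.48 with Gata3 and -0.63 with Slc26a5. Atp2a3, which pumps calcium into the endoplasmic reticulum, stood at 0.44 and -0.77. Ripor3, and Osbp2, an oxysterol-binding protein, stood at 0.49 and 0.46 with Gata3 and at -0.70 and -0.69 with Slc26a5. After the correction for Slc26a5 and the mt- share these 4 fell to 0.29, 0.19, 0.28 and 0.25. Closer to 0 with Slc26a5, at -0.29 to -0.20, were Kmt5c, a histone H4 methyltransferase (0.44, corrected 0.37), Arhgef2, a guanine nucleotide exchange factor (0.43, corrected 0.34), and Lsm14b, an RNA-binding protein (0.43, corrected 0.37), though Lsm14b was detected in 19 cells only. Limd2, Marchf4, a ubiquitin ligase, the splicing regulator Rbm5, Zfp410, Rpusd3, Akap8l and Morc2a completed the 15, at 0.43 to 0.50.

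The 15 lowest held a pair of inhibitors of NF-kB and a pair of class I histocompatibility genes. Nfkbia and Nfkbib, which hold NF-kB in the cytoplasm, both stood at -0.49, and corrected both stood at -0.30. H2-D1 and H2-Q6 stood at -0.48 and -0.47, or -0.28 and -0.34 corrected, and reads may be split between such near-identical genes. Both were sparse: H2-D1 was detected in 33 cells, with 25 at 0, and H2-Q6 in 14, with 53 at 0. Xirp2, an actin-binding protein of stereocilia, stood at -0.45 (corrected -0.34), and Anxa5, a phospholipid-binding annexin, at -0.47 (corrected -0.25). Cetn2, a centrin, Evc2, a protein of cilia, and Prkab1, a subunit of AMP-activated kinase, had -0.46, -0.45 and -0.45. Dusp14, Ube2e3, Copz1 and Rab11fip1 stood at -0.47 to -0.46. Every 1 of these 30 values lay nearer to 0 when ranks were corrected for Slc26a5, and likewise when they were corrected for the mt- share.

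**Figure D4:**
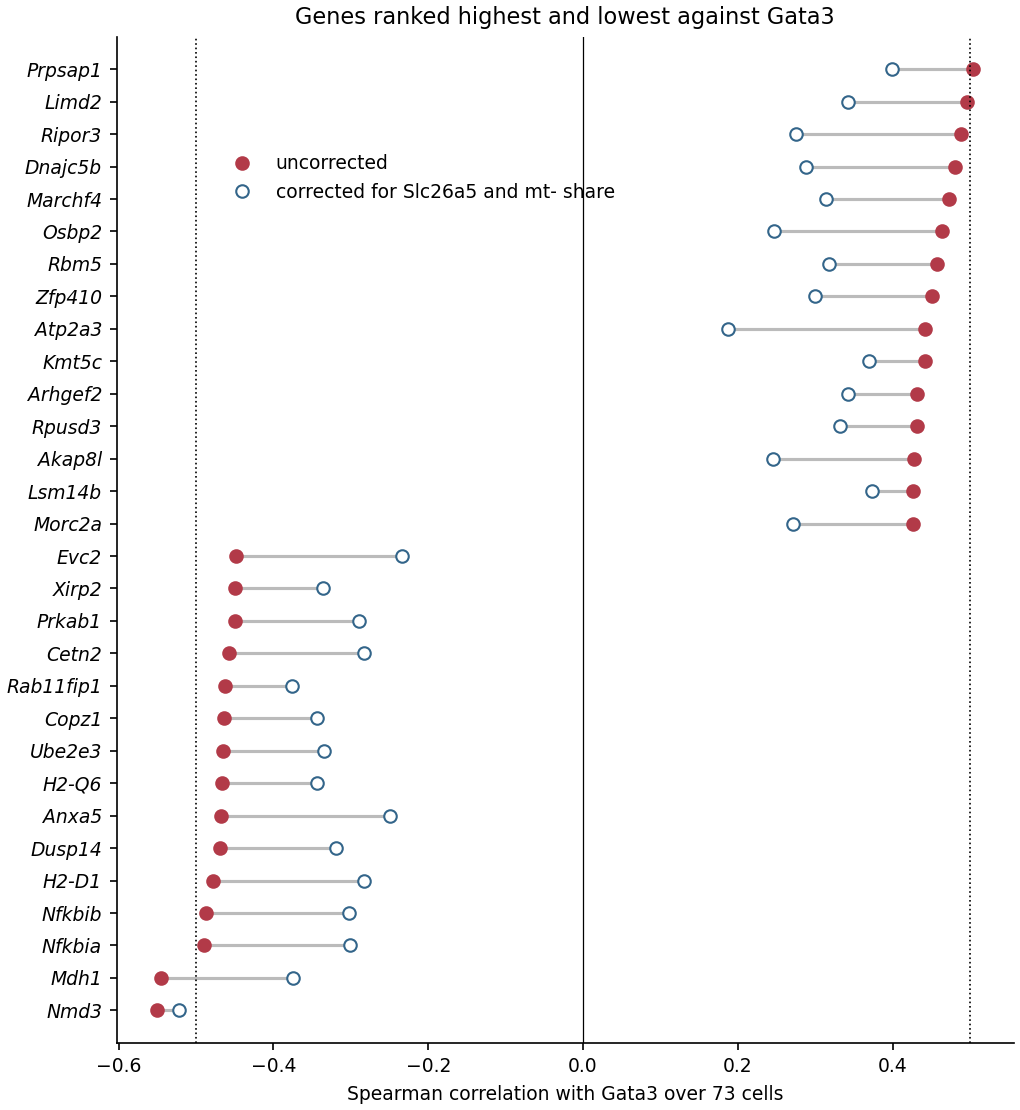
Spearman correlation with Gata3 over 73 cells for the 15 highest and 15 lowest genes, uncorrected (filled) and corrected for Slc26a5 and the mt- share of counts (open). Dotted lines mark 0.5 and -0.5; corrected, Nmd3 at -0.52 is the 1 gene beyond them.

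With Slc26a5 and the mt- share corrected for, other genes came to the fore. Taz, which encodes the mitochondrial cardiolipin enzyme tafazzin in this annotation, ranked highest at 0.45, against 0.38 uncorrected. Erlin1, a protein of the endoplasmic reticulum, stood at 0.42 and Atp6v0e2, a subunit of the vacuolar proton pump, at 0.40. Prpsap1, Zcchc10, Mxi1, a partner of MAX, Pik3r4, Lsm14b, Kmt5c and Ift52, an intraflagellar transport protein, followed at 0.35 to 0.40. After Nmd3, the lowest were Sf3b1, a core splicing factor in all 73 cells (-0.42), and Cetn3, a centrin (-0.41). By uncorrected correlations, the closest gene to Cetn3 in size was Gata3. Zzz3, Rsrc1, a splicing protein, Timm22, of mitochondrial import, Thoc5, of mRNA export, Rab11fip1, Mdh1 and Retsat followed at -0.39 to -0.37. Sparse among these were Erlin1, Zcchc10 and Pik3r4, detected in 21 cells each, Thoc5 in 20 and Retsat in 18.

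Inner hair cell genes mostly had positive correlations with Gata3. Of 10 compared, 8 had positive values and 5 reached 0.3, against 2.56% of all genes, with a median of 0.29 against 0.00 over all genes. The 5 were Dnajc5b, Atp2a3, Slc7a14 (0.36), Otof, the calcium sensor of vesicle release (0.35), and Shtn1 (0.31). Tbx2 stood at 0.26 and Calb2, a calcium buffer, at 0.20, while Slc17a8, the vesicular glutamate transporter, stood at 0.09. Fgf8, whose promoter drove the Flp used to pick cells, stood at -0.21 and Rprm at -0.28. Corrected for Slc26a5 and the mt- share, the median was 0.09 and 0 of 10 reached 0.3, against 0.663% of all genes. This list, like the others, was chosen with earlier results of these data known, so its counts are descriptions only.

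Outer hair cell genes went the other way in part. Of 11 compared, 5 stood at -0.3 or less, against 3.04% of all genes, with a median of -0.13. They were Slc26a5, Calb1, a calcium buffer (-0.39), Ocm, a calcium-binding protein (-0.37), Mlf1 (-0.35) and Sri, another calcium-binding protein (-0.34). Car7, Lmod3 and Chrna10 stood between 0.00 and 0.02, and Strip2, Lbh and Kcnn2 between -0.13 and -0.10. Corrected, the median of 10 genes was -0.03 and 0 stood at -0.3 or less, against 1.01% of all genes; Mlf1 kept the lowest value, -0.27.

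Ribbon synapse genes had a median of 0.22 over 15 members, with 4 at 0.3 or more, against 2.56% of all genes. Corrected, the median was 0.05 with 0 members at 0.3 or more, against 0.663% of all genes, so this count is near that share. Beside Dnajc5b and Otof, which are in the inner hair cell list too, the 4 uncorrected were Bsn, the scaffold bassoon (0.36), detected in 16 cells, and Cabp2, a calcium-binding regulator of the channel (0.31), in all 73. The summed level of the list, from 5049 through a median of 8130 to 12394 CPM, had a rank correlation of 0.47 with Gata3, and 0.28 corrected. With Slc26a5 the sum stood at -0.59. Otof, Cabp2 and Slc17a8 had the largest medians (2912, 2060 and 1346 CPM), so the sum weighs a few members most. Snap25 (-0.23) and Cacnb2 (-0.22) were the lowest members. The pore subunit Cacna1d stood at -0.10.

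Other hair cell transcription factors and otic regulators were mixed. Of 19 hair cell factors compared, 2 reached 0.3, Rorb (0.42) and Rora (0.32), both retinoid-related orphan receptors, and 1 stood at -0.3 or less, Nr2f2 (-0.37), against 2.56% and 3.04% of all genes. Corrected, 0 of 19 reached 0.3 in size, against 0.663% of all genes upward and 1.01% downward, so this count is near those shares. Pou4f3 (-0.04), Gfi1 (-0.02) and Thrb, a thyroid hormone receptor (-0.06), stood near 0. Casz1 reads stood at 0.11, or 0.05 corrected. Of 5 otic regulators compared, all 5 had negative values, as had 4241 of all 8618 genes, with Isl1, a LIM homeodomain factor, lowest at -0.44 (corrected -0.29) and Eya4, a transcriptional coactivator, nearest to 0 at -0.03 (corrected 0.04). Their summed level stood at -0.26, or -0.06 corrected. Pax2, Pax8, Lmx1a, Neurod1 and Neurog1 had no read, and Sox2 reached 10 CPM in 4 cells.

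General hair cell genes showed no common direction, with a median of -0.02 over 16 members and 7 positive. Chrna9, a subunit of the efferent acetylcholine receptor, was the 1 member of 16 at -0.3 or less (-0.36, corrected -0.08), against 3.04% of all genes, and Cib2, a partner of the transduction channel, was the highest (0.29). Over 13 immediate early and stress genes the median was 0.11, with 2 at 0.3 or more and 3 at -0.3 or less, against 2.56% and 3.04% of all genes. The inducible heat shock genes Hspa1b and Hspa1a stood at 0.36 and 0.32, detected in 17 and 12 cells. Hspa8, the constitutive chaperone, Junb and Atf3 stood at -0.38, -0.33 and -0.30. Hspa8 kept -0.31 after the correction, the 1 member beyond 0.3 in size, corrected, among all lists examined. Of all genes, 0.663% stood at 0.3 or more and 1.01% at -0.3 or less, corrected, so such a count does not set Hspa8 apart.

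**Figure D5:**
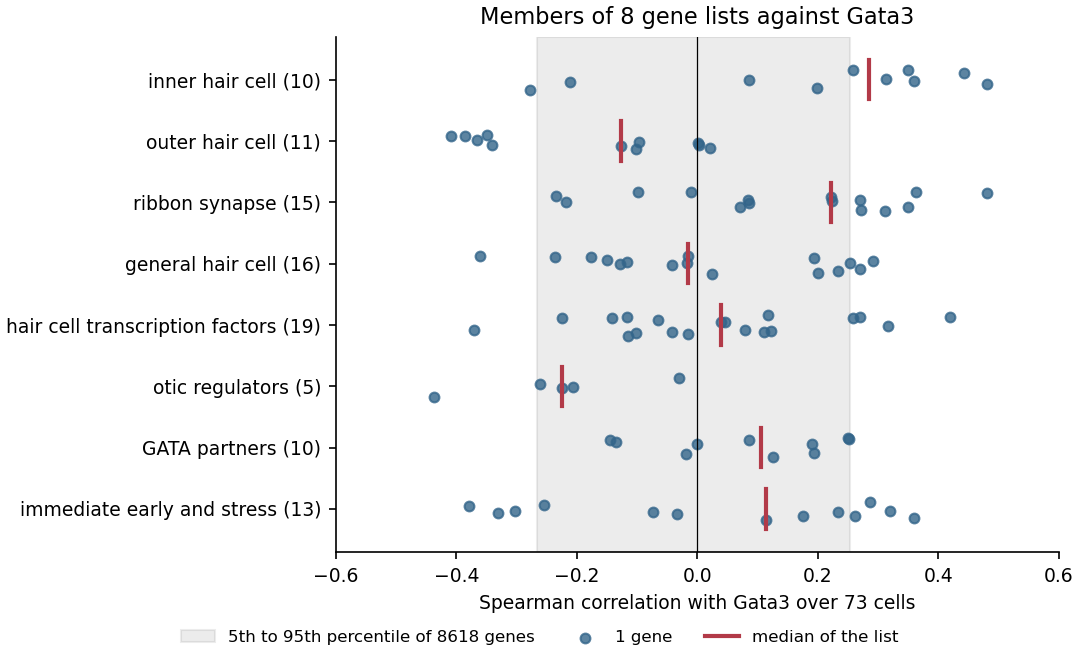
Spearman correlation with Gata3 over 73 cells for members of 8 gene lists, with 1 point per gene compared and the median of each list as a red line; numbers in brackets count the genes. The grey band holds the middle of 8618 genes, from -0.27 (5th percentile) to 0.25 (95th). Inner hair cell genes lie mostly to the right, and 5 outer hair cell genes lie left of the band.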

How the data were processed

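Full-length cDNA was made from single picked cells with the Smart-Seq HT kit, per the labels' protocols, and the authors deposited raw counts per gene and cell. Tools listed in the submitters' processing notes are featureCounts 2.0.1, HISAT2 2.2.1 and StringTie 2.2.1, with build mm10. The sources used here do not give settings, strand use or annotation release. The reporter row WPRE (0.0161% of counts) was left out of totals. No libraries were identical (lowest chi-square per gene 532 over 2628 pairs).

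Counts were divided by library totals to give CPM, and detection meant 10 CPM. Spearman correlations were limited to genes whose mean reached 10 CPM; corrected values are correlations of residual ranks. No p-values were made, since the cells form 1 sample. The correlation step was tested on simulated data. Named genes are the 15 highest and 15 lowest, the 10 highest and 10 lowest corrected, list members and neighbours, and genes that lack an official name were passed over. Some list members are not reported here. Gata3 and the lists were chosen with earlier results of these data known. Exon lengths come from GENCODE vM21 (53292 rows match a symbol in the gene name table) and the promoter from RefSeq (GRCm38.p6). Alternatives covered scaling, depth, measure, filters, corrections and cells left out. R 4.3.3 with scran 1.30.0 gave size factors. All else ran in Python 3.11.15 with scipy 1.17.1, pandas 2.3.3, matplotlib 3.10.9 and numpy 2.4.6.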

Additional observations from a re-analysis of the deposited data

How the results depend on the processing

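The Gata3 level (median) lay between 249 and 267 CPM under all alternatives. Its correlation with Slc26a5 (-0.41) was -0.30 corrected for the mt- share and -0.27 corrected for the ribosomal protein share, an alternative chosen after seeing the data, and ranged from -0.45 to -0.39 without single cells. Genes at 0.5 or more (1) numbered 4 with totals lacking mt- genes, 2 with thinned counts, with Pearson correlations or without cells 5 and 67, and 0 without the 2 cells farthest from the Gata3 median or corrected for Slc26a5, the mt- share, stress genes or the ribosomal protein share. Genes at -0.5 or less (2) numbered 1 corrected for Slc26a5, the mt- share, depth or the ribosomal protein share. Without the 24 cells holding rare markers of other cell types, 5 genes rose and 12 fell, and corrected 1 and 4, over fewer cells. At a size of 0.4, 32 rose and 52 fell, and corrected 4 and 5.

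Without single cells the counts ran from 0 to 4 rising and 2 to 7 falling (7 without cell 7, 5 without cell 41 or 49, and 4 rising without cell 64 or 70). Corrected, they stayed at 0 and 1, Nmd3, in all 73 omissions. Nmd3 stood at -0.5 or less in 12 of 12 alternatives and Mdh1 in 8, and Prpsap1 stood at 0.5 or more in 6. Of 520 single gene values under alternatives, 468 moved by 0.1 or less, and of the 52 that moved more, 49 lay nearer to 0. Although 0 changed sign, these genes were picked for large values in the same cells, so a change of sign was unlikely from the start. No paired analysis was possible because the cells form 1 group. Depth does not limit the detection of Gata3, but its rank correlation with total counts was -0.30. Genes detected in few cells have tied ranks.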
